A study of Mus musculus with 7 samples.

Results

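*Prdm1* and 7 further members of the *Prdm* gene family, *Prdm2*, *Prdm4*, *Prdm8*, *Prdm10*, *Prdm13*, *Prdm15* and *Prdm16*, were followed in embryonic mouse retina that carried 2, 1 or 0 intact copies of *Ptbp1*. These 8 genes were taken by symbol from the 48440 genes of the count table. *Prdm1* was chosen by its own counts in these libraries, which were higher with each copy of *Ptbp1* lost, and the 7 others were listed beside it with the data known. The values of the 8 genes are therefore given as a description, without a test.

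Bulk RNA-seq was performed on whole retinas collected at embryonic day 16 (E16), and 36 retinas were pooled by genotype into 7 libraries. The question of the comparison was how gene expression in the embryonic retina changes when the RNA-binding protein Ptbp1, a regulator of splicing, is lost from retinal progenitors. All libraries carried the *Chx10-Cre* transgene, which makes Cre recombinase in retinal progenitors. The wildtype library (WT) carried *Chx10-Cre* alone and was 1 pool of 6 retinas, so its values have no replicate and no error. The heterozygotes (Het) were *Chx10-Cre;Ptbp1lox/WT*, with pools of 5, 5 and 6 retinas for Het1, Het2 and Het3. The homozygotes (KO) were *Chx10-Cre;Ptbp1lox/lox*, with pools of 4, 4 and 6 retinas for KO1, KO2 and KO3. Cre removes the promoter of *Ptbp1* together with its first exon from the lox allele, which has a loxP site on either side of them. The library totals of gene counts were 148690857 for WT, 171117305, 120593979 and 152970301 for the Het pools, and 133765170, 131005766 and 129073579 for the KO pools, where values of pools are always listed by replicate number. The labels do not say whether the pools of a genotype came from separate litters, and p-values measure the spread between these pools. Expression is given as CPM, counts relative to the library size after TMM scaling, and the error is the SD over 3 libraries.

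Prdm proteins carry a PR domain, a relative of the SET domain of histone methyltransferases, usually followed by zinc fingers that bind DNA, and most act as transcriptional regulators through chromatin enzymes that they recruit. In the developing retina, Prdm1 (Blimp1) is made in photoreceptor precursors, where it represses bipolar genes and holds cells to the photoreceptor fate. Prdm13 acts in amacrine cells downstream of Ptf1a, and Prdm8 is needed for the formation of rod bipolar cells.

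*Ptbp1* was measured at 381 CPM in WT, at 210, 219 and 234 CPM in Het1 to Het3, and at 27.9, 6.04 and 46.9 CPM in KO1 to KO3. The level followed the labelled genotype in all 7 libraries, and the KO libraries kept different residual amounts. The log2 fold change of KO over Het was -3.04 (standard error 0.635, adjusted p = 0.0316, edgeR's quasi-likelihood test), with all 3 KO libraries below all 3 Het libraries. Leaving out a library raised the adjusted p of the edgeR test to 0.0519 (Het1), 0.0964 (Het2), 0.0934 (Het3) and 0.0744 (KO1). *Ptbp2*, the neuronal paralog, was measured at 338 CPM in the WT pool, 428, 455 and 430 CPM over the Het pools and 529, 550 and 538 CPM over the KO pools. Its difference between KO and Het passed the test (log2 fold change 0.30, standard error 0.0374, adjusted p = 0.00831, edgeR, higher in 3 of 3 KO libraries).

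The tissue label was checked against 7 transcription factor genes that define the retina, *Rax*, *Pax6*, *Six3*, *Six6*, *Lhx2*, *Sox2* and *Hes1*. All 7 were tested, their summed expression lay between 1940 CPM in KO2 and 2094 CPM in WT, and the most abundant, *Pax6*, ranged from 514 to 581 CPM. None was differentially expressed between KO and Het by edgeR or by DESeq2, with 3 of 7 at an unadjusted p under 0.05 in edgeR. Differentially expressed here means an adjusted p below 0.05 and a change of more than 1.2-fold.

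Single libraries stood apart in the markers of other tissues. In Het1, 18 of 19 muscle genes were at their highest, with a sum of 381 CPM against 10.9 to 14.2 CPM in the 6 other libraries, and the most abundant of them, *Myh3*, ranged from 0.888 to 88.8 CPM. In Het1, 9 of 12 genes of pigmented cells were also at their highest, with a sum of 589 CPM against 48.1 to 95.3 CPM in the others. *Pmel*, the most abundant of that list, ranged from 12.6 to 321 CPM, whereas *Rpe65*, a defining gene of the pigment epithelium, had at most 3 counts in every library. KO1 and KO2 were low in blood and vessel genes. The lowest value lay in KO1 or KO2 for 9 of 10 erythroid genes, whose sum was 37.1 and 24.5 CPM there against 189 to 531 CPM elsewhere, with *Hbb-bs*, the most abundant, between 10.4 and 275 CPM. The same held for 7 of 7 pericyte genes, whose sum was 20.7 and 19.4 CPM against 31.6 to 73.8 CPM, with *Pdgfrb* between 15.9 and 23.5 CPM. It held for 8 of 11 endothelial genes as well, although the sum of that list was highest in KO1 at 584 CPM, and *Kdr*, the most abundant, ranged from 361 to 562 CPM. Between KO and Het, edgeR called 0 of 18 muscle genes, 0 of 11 pigment genes and 0 of 9 erythroid genes, with 13, 3 and 4 of them at an unadjusted p under 0.05 and 1, 1 and 2 called by DESeq2. It called 1 of 7 pericyte genes, *Pdgfrb*, lower in KO, and 1 of 11 endothelial genes, *Kdr*, higher in KO. The part of these cells in the values of the *Prdm* genes was not tested.

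*Prdm1* (ENSMUSG00000038151.12) encodes a repressor that is also known from plasma cells. It was measured at 35.8 CPM in the WT pool, 117, 91.6 and 95.7 CPM over the Het pools and 164, 162 and 164 CPM over the KO pools. The WT library was below every Het library, and every Het library was below every KO library. Averaged over 3 libraries each, Het had 102 ± 13.8 CPM and KO 163 ± 0.950 CPM (SD, n = 3). The 3 KO libraries lay within 1.01-fold of each other, whereas the Het libraries spread over 1.28-fold with Het1 as the highest. Relative to the single WT library, the Het mean was 2.84-fold and the KO mean 4.56-fold higher, and KO was 1.61-fold above Het. On the CPM scale, the step from WT to the Het mean was 65.7 CPM and that from the Het mean to the KO mean 61.8 CPM. The steps were of like size on this scale alone and not as ratios, and the first rests on the single WT library. The fitted log2 fold change of KO over Het was 0.69 with a standard error of 0.0897, and it lay between 0.62 and 0.80 under 12 alternatives to the processing, the highest being the fit without Het1. In these bulk samples, more cells that make *Prdm1* and more *Prdm1* RNA per cell cannot be told apart.

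**Figure D1:**
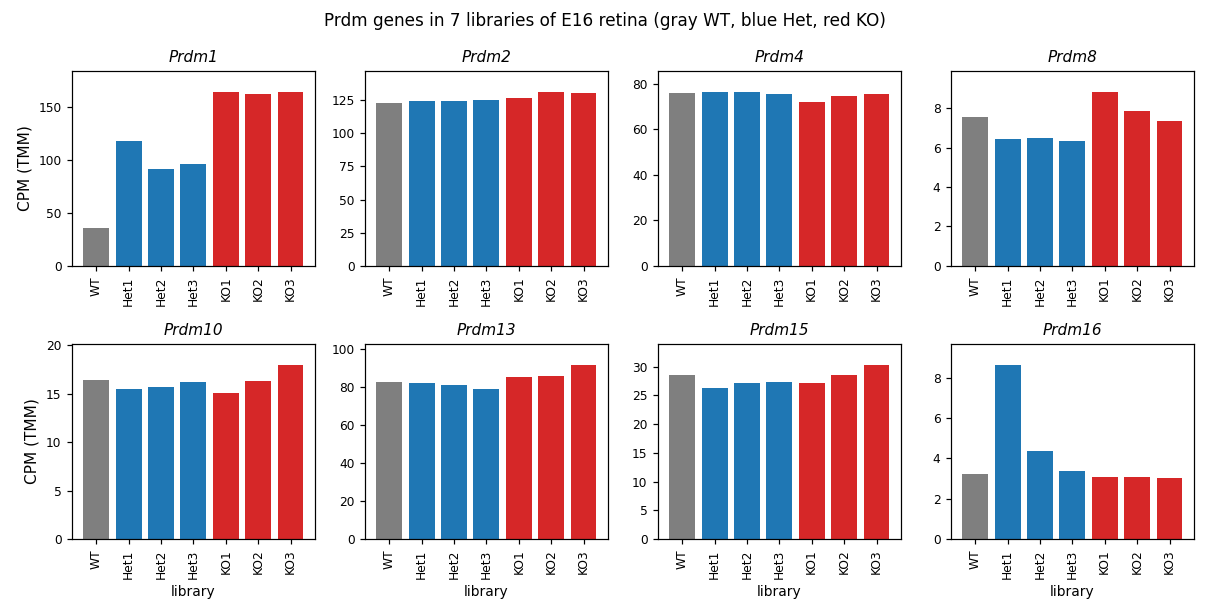
Expression in CPM (y axis, from 0, a scale for each gene) of the 8 *Prdm* genes in each of the 7 libraries (x axis), with 1 bar per library, gray for WT, blue for Het and red for KO. *Prdm1* goes from 35.8 CPM in WT to between 162 and 164 CPM in KO, while the bars of *Prdm2*, *Prdm4*, *Prdm10*, *Prdm13* and *Prdm15* are nearly level and *Prdm16* is highest in Het1.

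Of the 20019 genes that passed the expression filter, 1445 (7.22%) were differentially expressed between KO and Het by edgeR, 802 (4.01%) higher and 643 (3.21%) lower in KO. All 8 *Prdm* genes passed the filter. As a count alone, 1 of them was among the 1445 genes, and 3 were among the 2060 genes that DESeq2 called. No overlap of Het with KO was seen in 5 of the 8, compared with 36.3% of all tested genes. WT lay below all Het libraries and these below all KO libraries in 2 of the 8, *Prdm1* and *Prdm2*, compared with 4.72% of all tested genes. Because the genes were chosen with these values known, nothing is read from the counts. The number of differentially expressed genes itself depended on single libraries, being 386 without Het2, 496 without Het3 and 612 without KO2.

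The steps of *Prdm1* were set beside those of 13750 tested genes with a mean of at least 1 CPM. *Prdm1* was chosen for these steps and its own ratios set the limits, so the counts that follow are a description only. The ratio to WT rests on a single library. The ratio of the Het mean to WT was as large as in *Prdm1* or larger in 113 genes, *Prdm1* included, and the ratio of KO to Het in 243. Both ratios reached those of *Prdm1* in 4 other genes, which were named after their values were seen. They were the photoreceptor regulator *Nr2e3* and *Gm9855*, *Hmgb1-ps3* and *Vdac3-ps1*, which are annotated as pseudogenes and whose counts are uncertain where reads match a related gene. The Het mean of *Vdac3-ps1* rested on Het2 and its KO mean on KO1 and KO3, with 0.874 CPM in WT, 0.283, 7.50 and 0.2702 CPM in the Het pools and 7.39, 0.281 and 6.70 CPM in the KO pools, so its groups overlapped. *Nr2e3* was measured at 0.464 CPM in the WT pool, 1.85, 1.21 and 0.923 CPM over the Het pools and 20.8, 8.77 and 10.7 CPM over the KO pools, so its second step was the larger one, unlike that of *Prdm1*. *Gm9855* had 0.0336 CPM in WT, 20.7, 21.8 and 21.3 CPM in the Het pools and 41.6, 40.7 and 39.6 CPM in the KO pools. *Hmgb1-ps3* had 0.229 CPM in WT, 0.842, 0.520 and 0.659 CPM in the Het pools and 4.44, 2.19 and 1.28 CPM in the KO pools. In both and in *Nr2e3*, as in *Prdm1*, WT lay below all Het libraries and these below all KO libraries. The choice by both ratios favours this order, which 4.72% of all tested genes had.

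The genes whose profile was nearest to that of *Prdm1* were found by the root mean square difference of log2(CPM + 0.5) over the 7 libraries, each gene centred on its own mean, among 13749 genes. The 8 nearest were *Angpt1*, *Gnat2*, *St14*, *Adcy8*, *Nxnl2*, *Doc2b*, *BC027072* and *Pdc*, with differences from 0.23 to 0.32 on the log2 scale. *Angpt1*, a ligand of the Tie2 receptor and the nearest of them, was measured at 3.64 CPM in the WT pool, 11.9, 7.72 and 9.25 CPM over the Het pools and 12.21, 11.87 and 12.02 CPM over the KO pools. As in *Prdm1*, Het1 was the highest of the Het libraries of *Angpt1*, and the KO libraries were close to each other. Unlike in *Prdm1*, Het1 (11.90 CPM) lay above KO2 (11.87 CPM), so Het and KO overlapped, and KO was 1.25-fold above Het. *Gnat2*, the cone transducin, came second, with 7.21 CPM in the WT pool, 15.9996, 10.3 and 10.7 CPM over the Het pools and 22.8, 20.9 and 20.8 CPM over the KO pools. The other 7 *Prdm* genes ranked from 3258 (*Prdm13*) to 12814 (*Prdm16*) in nearness to *Prdm1*.

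*Prdm1* lies on the minus strand of chromosome 10 of GRCm38, from 44437177 to 44528501, with up to 8 exons in its 4 annotated transcripts. *Ptbp1* lies on the same chromosome, 35325926 bases away, so the lox allele and the copy of *Prdm1* beside it can be inherited together. A difference carried along with the lox allele and the loss of *Ptbp1* itself cannot be told apart in this design, and this was not tested. The 10 tested genes next to *Prdm1*, 5 on each side, were *Cd24a*, *Qrsl1*, *Rtn4ip1*, *Aim1*, *Atg5*, *Prep*, *Popdc3*, *Bves*, *Lin28b* and *Hace1*. Their log2 fold changes of KO over Het ranged from -0.48 in *Lin28b* to 0.59 in *Bves*, with a median of 0.03. None was differentially expressed by edgeR, 3 had an unadjusted p under 0.05, and DESeq2 called 1, *Bves*. *Cd24a* had an adjusted p of 0.0342 in edgeR with a log2 fold change of -0.18, below the limit on fold change. The nearest neighbours on either side, *Atg5* and *Prep*, were level in all libraries, with 33.5 to 35.8 CPM and 132 to 145 CPM. Of the 220 tested genes between *Prdm1* and *Ptbp1*, 18 (8.18%) were differentially expressed, compared with 7.22% of all tested genes.

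The sequence around a RefSeq start of *Prdm1* is shown because its RNA differed between all genotypes, together with those of *Prdm13*, which was nearly level, and of *Crx*, a photoreceptor gene. Each window holds 250 bases before and 50 after the start in the RefSeq annotation of GRCm38.p6 and was searched on both strands for TAATCC (reverse complement GGATTA), letters that the homeodomain proteins Otx2 and Crx bind. Windows were found for 7 of the 8 *Prdm* genes (10 windows), all but *Prdm2*. The motif occurred in 7.06% of the 32851 windows of all genes and in 1 of the 10, that of *Prdm13*. The windows lie at chr10:44458699-44458998 for *Prdm1*, chr4:21685914-21686213 for *Prdm13* and chr7:15879906-15880205 for *Crx*, each on the minus strand, and capitals mark the motif, which starts at base 147 of the *Prdm13* window and at bases 157 and 230 of the *Crx* window. The *Prdm1* window lies inside the gene as placed by GENCODE, whose annotated end upstream is at 44528501, so it shows 1 start and not the outermost. In this window these letters were absent, which says nothing about sites elsewhere.
Prdm1: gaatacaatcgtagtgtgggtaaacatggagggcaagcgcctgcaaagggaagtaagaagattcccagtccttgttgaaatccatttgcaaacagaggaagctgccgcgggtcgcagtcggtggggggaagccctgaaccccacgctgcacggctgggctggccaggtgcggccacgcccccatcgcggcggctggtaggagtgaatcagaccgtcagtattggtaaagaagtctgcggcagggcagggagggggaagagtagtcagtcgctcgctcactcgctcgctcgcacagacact
Prdm13: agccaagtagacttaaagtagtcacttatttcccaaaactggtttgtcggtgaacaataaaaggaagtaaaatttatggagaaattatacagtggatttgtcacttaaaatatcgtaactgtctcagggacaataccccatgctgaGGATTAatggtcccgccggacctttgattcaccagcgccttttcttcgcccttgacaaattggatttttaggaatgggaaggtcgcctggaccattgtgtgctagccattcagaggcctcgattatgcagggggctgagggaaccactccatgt
Crx: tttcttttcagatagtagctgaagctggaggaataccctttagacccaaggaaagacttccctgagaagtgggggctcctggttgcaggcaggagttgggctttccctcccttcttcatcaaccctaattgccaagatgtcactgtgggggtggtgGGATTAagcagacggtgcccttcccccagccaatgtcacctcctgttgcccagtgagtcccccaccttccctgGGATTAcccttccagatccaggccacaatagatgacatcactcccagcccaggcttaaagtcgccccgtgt

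*Prdm1* is known to act with regulators of photoreceptor fate, and Otx2 is known to activate it. *Otx2* was measured at 162 CPM in the WT pool, 183, 175 and 162 CPM over the Het pools and 201, 180 and 185 CPM over the KO pools. The Het and KO libraries of *Otx2* overlapped, and its difference did not pass the test (log2 fold change 0.12, adjusted p = 0.216, edgeR). The difference of *Crx*, the regulator next in the photoreceptor pathway, did not pass either (0.20, adjusted p = 0.116, edgeR), with 173 CPM in WT, 159 ± 9.59 CPM in Het and 182 ± 14.9 CPM in KO (SD, n = 3). All 3 KO libraries of *Crx* lay above all 3 Het libraries, with WT among the KO libraries. Its adjusted p was 0.0343 in DESeq2 and 0.0321 in edgeR with the replicate number as a block, below the limit on fold change in both. Over all 7 libraries, *Otx2* lay between 162 and 201 CPM and *Crx* between 149 and 198 CPM, while the KO mean of *Prdm1* was 4.56-fold the single WT value. The part of Otx2 and Crx in the level of *Prdm1* was not tested.

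Of 15 regulators of photoreceptor fate, 6 were differentially expressed and higher in KO, 0 were lower, and their median log2 fold change was 0.20, compared with -0.00 over all tested genes. The largest differences among these 6 were those of *Nr2e3*, *Samd7*, *Nrl*, *Esrrb* and *Samd11*, with log2 fold changes from 3.34 down to 0.81, and the sixth was *Neurod1* at 0.32. *Rorb*, the most abundant, ranged from 531 to 595 CPM and was not differentially expressed. *Nrl*, the rod determinant, was measured at 7.49 CPM in the WT pool, 10.5, 8.96 and 8.30 CPM over the Het pools and 32.8, 20.4 and 20.8 CPM over the KO pools. Its log2 fold change was 1.41 (adjusted p = 0.0120, edgeR), and its adjusted p was 0.0657 without Het2 and 0.0534 without Het3. In *Nrl* and *Nr2e3* the KO libraries were uneven, with KO1 highest, whereas the KO libraries of *Prdm1* were not. The count of 6 fell to 2 without Het2 and to 3 without Het3.

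Of 37 tested genes for products of rods and cones, 20 were differentially expressed and higher in KO and 2 were lower, with a median log2 fold change of 0.66. The largest differences among differentially expressed genes of at least 1 CPM were those of *Sag*, *Rp1*, *Opn1sw*, *Pde6g* and *Pde6c*, with log2 fold changes between 1.43 and 2.40. The 2 lower ones, named after their values were seen, were *Impg2* (-0.83) and *Guca1b* (-3.20). *Impg2* was measured at 43.5 CPM in WT, 77.6 ± 8.03 CPM in Het and 43.7 ± 6.89 CPM in KO (SD, n = 3), and *Guca1b* had a mean of 0.490 CPM over the 7 libraries. The most abundant genes were *Gnb1*, *Rbp3* and *Unc119*, of which *Rbp3*, a retinoid-binding protein of the photoreceptor matrix, was differentially expressed at 0.55. It was called in 2 of 6 edgeR fits that left out 1 library, with an adjusted p of up to 0.143. *Unc119* had a log2 fold change of 0.17 (adjusted p = 0.0429, edgeR), below the limit on fold change. When 1 library was left out, the count of 22 was 1 (Het2), 4 (Het3), 14 (KO1) or 8 (KO2).

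Bipolar genes are the known targets of repression by Prdm1. *Vsx1*, a cone bipolar regulator, was near the limit of detection, at 0.753 CPM in WT and between 0.128 and 0.395 CPM in the others (log2 fold change -0.57, adjusted p = 0.294, edgeR). Of 23 tested bipolar genes, 3 were higher in KO and 1 was lower, with a median log2 fold change of 0.07. The higher ones were *Gpr179* (0.89), *Rgs11* (0.79) and *Irx5* (0.56), the lower one was *Bhlhe23* (-1.88), of which *Rgs11* and *Bhlhe23* were named after their values were seen, and the abundant *Fezf2* and *Trpm1* were not called. *Trpm1*, which pigment cells make too, ranged from 4.44 CPM in KO2 to 117 CPM in Het1, the library with the most pigment RNA. Its log2 fold change of -1.77 was -0.81 without Het1 and -3.49 without KO3, and it was called in the latter fit alone. The count of 4 was 1 without Het2 and 2 without Het3.

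*Prdm1* is also made by plasma cells and other blood cells, so their markers were read beside it. In a list of lymphoid and plasma cell genes, *Cd3d* had 0 counts in every library and *Cd3e* at most 3. The sum over the list lay between 50.9 and 69.4 CPM, nearly all of it *Sdc1*, a surface proteoglycan that epithelia make too, at 49.7 to 68.8 CPM. *Sdc1* was lower in KO (log2 fold change -0.30) and *Mzb1*, a plasma cell gene at 0.185 to 0.706 CPM, was higher (1.62). The sum over 12 microglial genes was 62.4 CPM in the WT pool, 63.0, 59.1 and 83.2 CPM over the Het pools and 85.5, 115 and 95.6 CPM over the KO pools, so the KO libraries were the highest. The most abundant of them, *Csf1r*, ranged from 14.5 to 28.8 CPM, and 2 of the 12, *Cx3cr1* and *Ptprc*, were higher in KO by the test, with 9 at an unadjusted p under 0.05 and 6 called by DESeq2. The log2 fold change was positive in 11 of the 12, with a median of 0.56. Their part in the level of *Prdm1* was not tested.

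*Prdm13* (ENSMUSG00000040478.14; chromosome 4, 21677480 to 21685963) is the amacrine member. It was measured at 82.5 CPM in the WT pool, 82.0, 81.1 and 78.5 CPM over the Het pools and 85.1, 85.6 and 91.5 CPM over the KO pools. The KO libraries lay above all others, and KO3 was the highest. The mean was 80.5 ± 1.79 CPM in Het and 87.4 ± 3.54 CPM in KO (SD, n = 3), a log2 fold change of 0.12 with a standard error of 0.0375. *Ptf1a*, known to act upstream of *Prdm13*, was measured at 17.1 CPM in the WT pool, 15.7, 16.1 and 14.6 CPM over the Het pools and 18.8, 18.2 and 17.3 CPM over the KO pools. Its KO libraries also lay above the others, and its log2 fold change of 0.23 did not pass the test (adjusted p = 0.0564, edgeR). *Tfap2b*, a transcription factor of amacrine and horizontal cells, was measured at 182 CPM in the WT pool, 214, 199 and 189 CPM over the Het pools and 314, 285 and 275 CPM over the KO pools. It rose from Het to KO (log2 fold change 0.54, adjusted p = 0.00779, edgeR, 3 of 3 KO libraries). *Ebf3*, an amacrine and ganglion cell factor, was lower in all 3 KO libraries (175 to 211 CPM) than in all 3 Het libraries (224 to 245 CPM) and stood at the limit (-0.30, adjusted p = 0.0503 in edgeR, between 0.000519 and 0.150 over 12 alternatives). Without KO2, its adjusted p was 0.0263 in edgeR.

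Of 30 tested amacrine genes, 15 were differentially expressed and higher and 1 was lower, and the median log2 fold change was 0.48, compared with 0.12 for *Prdm13* itself. *Gad1*, *Neurod2*, *Slc18a3*, *Lhx9* and *Slc6a5* had the largest log2 fold changes among differentially expressed genes of at least 1 CPM, between 0.99 and 1.48. *Foxn4*, an abundant progenitor factor of the list, ranged from 169 to 181 CPM and did not pass the test. The count of 16 was 6 without Het2, 6 without Het3 and 9 without KO2.

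*Prdm8* (ENSMUSG00000035456.9; chromosome 5, 98167198 to 98188991) lacks the long zinc finger array of its relatives and works with the bHLH factor Bhlhe22. It was measured at 7.53 CPM in the WT pool, 6.43, 6.47 and 6.31 CPM over the Het pools and 8.83, 7.84 and 7.36 CPM over the KO pools. All KO libraries lay above all Het libraries, but the WT library lay among the KO libraries. The mean was 6.40 ± 0.0865 CPM in Het and 8.01 ± 0.750 CPM in KO (SD, n = 3), a log2 fold change of 0.32 with a standard error of 0.0843. An annotated antisense gene, *A730035I17Rik*, covers 29.1% of the exon length of *Prdm8* and was listed at 0.856 to 1.34 CPM, and since the strand setting of the counting is not given, reads of the pair cannot be told apart.

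*Bhlhe22* was measured at 43.4 CPM in the WT pool, 41.8, 38.7 and 37.3 CPM over the Het pools and 63.1, 52.8 and 50.7 CPM over the KO pools. All KO libraries were above WT and Het, and as in *Prdm8*, KO1 was the highest of all, but WT did not lie among the KO libraries as it did in *Prdm8*. *Bhlhe22* rose from Het to KO (log2 fold change 0.50, adjusted p = 0.0199, edgeR, 3 of 3 KO libraries), with an adjusted p of 0.0874 without Het2, 0.0778 without Het3 and 0.0596 without KO2. *Cdh11*, a cadherin gene that Prdm8 and Bhlhe22 are known to repress in the brain, was measured at 296 CPM in WT, 281 ± 15.0 CPM in Het and 264 ± 17.6 CPM in KO (SD, n = 3). Its libraries overlapped and its log2 fold change of -0.09 did not pass the test (adjusted p = 0.366, edgeR).

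**Figure D2:**
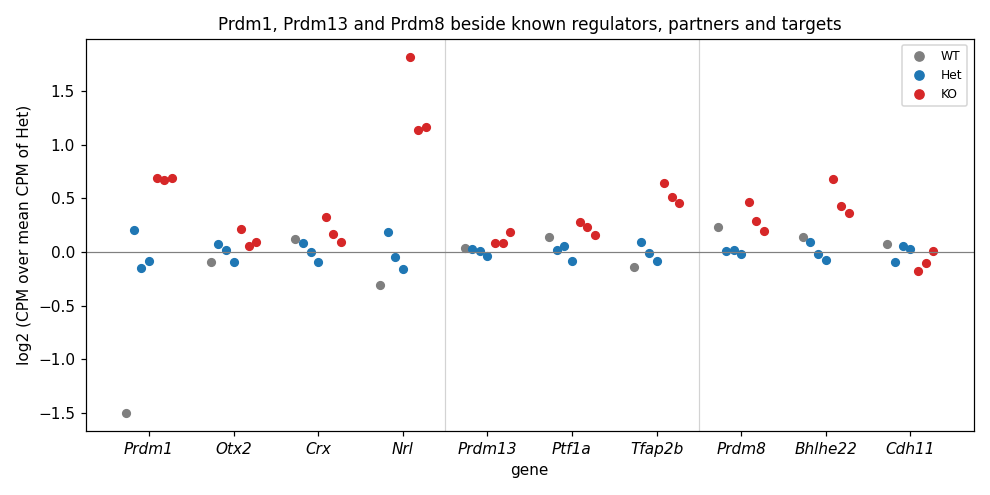
The log2 ratio of CPM to the mean CPM of the 3 Het libraries (y axis) for *Prdm1*, *Prdm13* and *Prdm8* and the regulators, partners and targets named with each (x axis), with 1 point per library, gray for WT, blue for Het and red for KO. The WT point of *Prdm1*, at 35.8 CPM against a Het mean of 102 CPM, is the lowest in the plot, and *Otx2* and *Crx* stay near 0.

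Chromatin partners known for Prdm proteins, among them the methyltransferases Ehmt1 and Ehmt2, histone deacetylases, Prmt5 and corepressors of the Tle and Ctbp families, were tested with *Bhlhe22* as a list of 16. No chromatin enzyme or corepressor was differentially expressed, and the 1 gene of the list that was, also with DESeq2, was the bHLH factor *Bhlhe22*, while 0 were without Het2, without Het3 or without KO2. An unadjusted p under 0.05 was reached by 7 of the 16, *Bhlhe22* included. The median log2 fold change was -0.05. The most abundant partners, *Ctbp1*, *Hdac2* and *Ehmt2*, ranged from 411 to 456 CPM, from 315 to 359 CPM and from 265 to 285 CPM across the 7 libraries.

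*Prdm2* (ENSMUSG00000057637.13; chromosome 4, 143107391 to 143212995) encodes Riz, a member with methyltransferase activity on histone H3. Its level was 123 CPM in the WT pool, 125, 124 and 125 CPM over the Het pools and 126, 131 and 130 CPM over the KO pools. Its order followed the genotypes as that of *Prdm1* did, but over a range of 1.07-fold from the lowest to the highest library. KO over Het gave a log2 fold change of 0.05 with a standard error of 0.0273.

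*Prdm4* (ENSMUSG00000035529.9; chromosome 10, 85891966 to 85917142) encodes a zinc finger protein that binds the p75 neurotrophin receptor and recruits Prmt5 in neural stem cells. It was measured at 75.9 CPM in the WT pool, 76.5, 76.3 and 75.5 CPM over the Het pools and 71.8, 74.6 and 75.6 CPM over the KO pools. The Het and KO libraries overlapped, and the log2 fold change was -0.04 with a standard error of 0.0288. *Prdm4* shares chromosome 10 with *Ptbp1* and *Prdm1*, and its level was alike in all genotypes. Whether position on the chromosome bears on the level of these genes was not tested.

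*Prdm15* (ENSMUSG00000014039.17; chromosome 16, 97791467 to 97851850) is known as a regulator of early embryonic development. Its level was 28.6 CPM in the WT pool, 26.3, 27.1 and 27.4 CPM over the Het pools and 27.2, 28.5 and 30.3 CPM over the KO pools. Het and KO overlapped, and WT lay within the KO range. KO over Het gave 0.09 on the log2 scale, with a standard error of 0.0492.

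*Prdm10* (ENSMUSG00000042496.17; chromosome 9, 31280538 to 31381723), a zinc finger activator needed in the early embryo, was measured at 16.5 CPM in the WT pool, 15.5, 15.7 and 16.2 CPM over the Het pools and 15.1, 16.3 and 18.0 CPM over the KO pools. Its groups overlapped, and the log2 fold change was 0.06 with a standard error of 0.0713. In *Prdm10*, *Prdm13* and *Prdm15* alike, KO3 was the highest of the 7 libraries. Without KO3, the log2 fold changes of the 3 genes were -0.01, 0.09 and 0.05.

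*Prdm16* (ENSMUSG00000039410.16; chromosome 4, 154316125 to 154636873), known from neural stem cells and brown fat, was the least abundant of the 8. It was measured at 3.21 CPM in the WT pool, 8.65, 4.38 and 3.39 CPM over the Het pools and 3.06, 3.05 and 3.05 CPM over the KO pools. Het1, which also held the muscle and pigment RNA, was the high library, and the other 6 lay between 3.05 and 4.38 CPM. The log2 fold change of KO over Het was -0.84 with a standard error of 0.331, and -0.35 without Het1. The part of other tissues in the Het1 value was not tested. The KO libraries differed by 1.01-fold.

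Other members of the family in the count table, among them *Mecom* (also called *Prdm3*), *Prdm6*, *Prdm9*, *Prdm11*, *Zfpm1* and *Zfpm2*, were not chosen for a pattern and were tested. *Prdm12* and *Prdm14* had at most 3 counts in every library and did not pass the filter. Of the 7 tested, 1 was differentially expressed and higher in KO, 1 was lower, and the median log2 fold change was -0.05. Among the 7 genes listed beside *Prdm1*, the median was 0.06, with a range from -0.84 to 0.32.

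*Zfpm1* (FOG1), a cofactor of GATA factors with a degenerate PR domain, was measured at 27.2 CPM in the WT pool, 26.7, 27.2 and 28.0 CPM over the Het pools and 22.1, 21.7 and 21.3 CPM over the KO pools. The KO libraries lay below all others, while WT and Het were alike. *Zfpm1* fell from Het to KO (log2 fold change -0.33, standard error 0.0386, adjusted p = 0.00710, edgeR, lower in 3 of 3 KO libraries). It was called under 12 of 12 alternatives, with an adjusted p between 6.93e-09 (DESeq2) and 0.0436. Its relative *Zfpm2* ranged from 11.98 to 14.05 CPM and did not pass (log2 fold change -0.05, adjusted p = 0.720, edgeR).

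*Prdm9*, the methyltransferase that places meiotic recombination, was measured at 4.10 CPM in the WT pool, 3.24, 3.21 and 3.39 CPM over the Het pools and 4.14, 4.60 and 5.68 CPM over the KO pools. All KO libraries were above all Het libraries, and WT lay just under the lowest KO library. The rise from Het to KO passed the test narrowly (log2 fold change 0.55, standard error 0.131, adjusted p = 0.0442, edgeR, 3 of 3 KO libraries). With 1 library left out, its adjusted p in edgeR was 0.0938 (Het1), 0.132 (Het2), 0.121 (Het3), 0.103 (KO2) and 0.0510 (KO3), and between 0.00281 and 0.132 over 12 alternatives.

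*Mecom*, a regulator of blood stem cells that is also made in vessels, was measured at 14.1 CPM in the WT pool, 6.32, 12.02 and 18.4 CPM over the Het pools and 1.19, 1.73 and 12.8 CPM over the KO pools. KO1 and KO2, the libraries with little RNA of pericytes and blood, were the low ones, and KO3 lay among the Het libraries. The log2 fold change of -1.22 had a standard error of 0.907 and did not pass the test (adjusted p = 0.402, edgeR). It was -0.75 without KO1, -0.81 without KO2 and -0.81 without Het3. Without KO3 it was -3.06 with an adjusted p of 0.0219 in edgeR, against adjusted p-values up to 0.670 over 12 alternatives. The part of vessel and blood cells in these values was not tested.

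*Prdm11* ranged from 37.9 to 44.2 CPM and did not pass the test (log2 fold change 0.07, adjusted p = 0.452, edgeR). *Prdm6*, known from smooth muscle, had between 10 and 50 counts, the most in Het1, and did not pass the test (log2 fold change -0.46, adjusted p = 0.583, edgeR). Without Het1 its log2 fold change was 0.14.

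**Figure D3:**
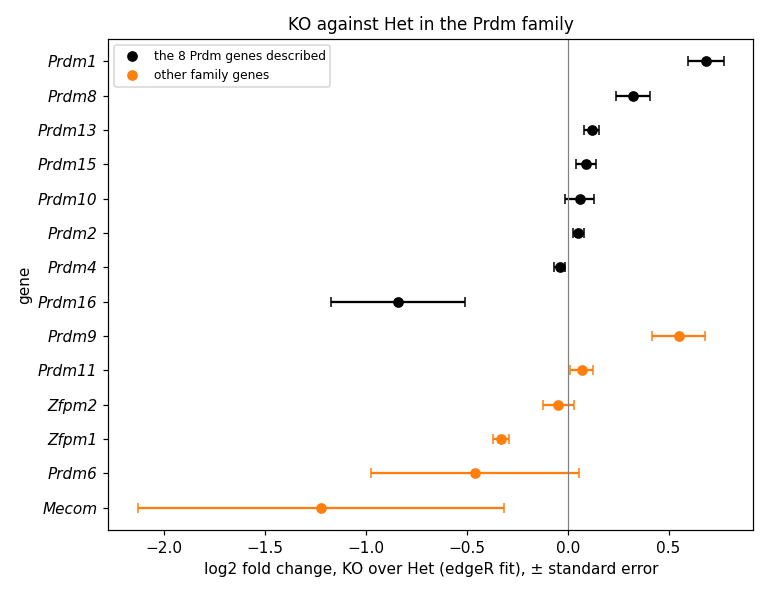
The log2 fold change of KO over Het (x axis) with its standard error from the edgeR fit for 14 tested genes of the *Prdm* family (y axis), black for the 8 genes described and orange for other family genes. Not all of the 7 other family genes that were tested are shown. *Prdm1* is the highest at 0.69, most of the others lie near 0, and *Mecom* and *Prdm16* are among those with wide errors.

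To compare levels between genes, CPM was divided by the exon length of each gene in kilobases, taken from a GENCODE release that may differ from that of the counts. In WT the highest level of the 17 family genes was that of *Prdm13* at 19.3 CPM per kb, followed by *Prdm2* at 16.5, *Prdm4* at 15.4, *Zfpm1* at 7.77 and *Prdm1* at 6.42 CPM per kb. With 1 copy of *Ptbp1* lost, *Prdm1* was level with *Prdm13*. The mean over the Het libraries was 18.8 ± 0.418 CPM per kb for *Prdm13* and 18.2 ± 2.48 CPM per kb for *Prdm1* (SD, n = 3), and the libraries of *Prdm1* overlapped those of *Prdm13* above and of *Prdm2* below (16.8 ± 0.0476 CPM per kb). In KO, *Prdm1* was the highest of the family at 29.3 ± 0.170 CPM per kb, and *Prdm13*, *Prdm2* and *Prdm4* followed at 20.4 ± 0.828, 17.4 ± 0.346 and 15.1 ± 0.400 CPM per kb (SD, n = 3). *Prdm1* was thus the gene that changed its place, from the fifth of 17 to the first, while the order of *Prdm13*, *Prdm2* and *Prdm4* among themselves was the same in the 3 genotypes. *Prdm15*, *Prdm10* and *Prdm8* lay lower, with Het means of 2.37, 1.71 and 1.32 CPM per kb, and *Prdm16* at 0.587 CPM per kb. Among these, the Het libraries of *Prdm15* and *Prdm10* did not overlap those of the next gene in the order, and those of *Prdm8* overlapped with *Mecom*.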

How the data were processed

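Bulk RNA-seq of E16 retina was analysed in 7 libraries (1 WT, 3 Het, 3 KO, grouped by the sample labels). Alignment by the authors used STAR, run inside rMATS-turbo, on GRCm38 with GENCODE genes. The values are counts per gene, which the authors made with featureCounts and deposited without normalization. The strand and multi-mapping settings are not given in the sources used here. The fit used edgeR 4.0.16 under R 4.3.3. The filter was filterByExpr on genotype (20019 of 48440) and library sizes were scaled by TMM (factors 0.988 to 1.03). All 7 libraries entered 1 quasi-likelihood fit with a mean per genotype, KO was compared with Het, with Benjamini-Hochberg adjustment across all genes tested. The biological coefficient of variation was 21.5%. Calls needed an adjusted p under 0.05 together with a change of more than 1.2-fold. The standard error was the log2 fold change over the square root of F. The scripts were tested on simulated counts.

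The 8 genes, the comparison lists and the rules were chosen with earlier results of these data known. The genes followed under the alternatives are the 8 *Prdm* genes and others of the family, *Ptbp1* and *Ptbp2*, the 3 most abundant genes of each retinal or cofactor list with up to 5 called genes of the largest change at a mean of at least 1 CPM, and the regulators, partners and targets *Otx2*, *Crx*, *Nrl*, *Vsx1*, *Ptf1a*, *Tfap2b*, *Ebf3*, *Bhlhe22* and *Cdh11*. The text also names the 8 nearest profiles, 5 neighbours on each side of *Prdm1*, the most abundant or called genes of the marker lists, and genes said to be named after their values were seen. Lists covered photoreceptor fate factors, photoreceptor, bipolar, amacrine, horizontal and ganglion cell genes, cofactors, retina-defining genes and markers of muscle, lens, pigmented cells, microglia, lymphoid and plasma cells, endothelium, pericytes and erythroid cells. They were described by counts and medians. Positions and exon lengths come from GENCODE M21 on GRCm38, which placed 48058 of the genes. The authors word the annotation of their counts as Release M10, so the exon lengths behind CPM per kb may differ from those used in counting. Promoter windows come from RefSeq. Replicates were not copies of each other, as the mean squared difference of a pair was 13.0 to 49.4 times its counting variance. The alternatives were RLE scaling, DESeq2 1.42.0, no filter, a filter of at least 10 counts per library throughout, the fit without WT, the replicate number as a block, adjusted p alone and each Het or KO library left out. Splicing was not analysed here. The values of some genes of the family and of the lists are not reported here.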

Additional observations from a re-analysis of the deposited data

How the results depend on the processing

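The log2 fold change of *Prdm1* moved by less than the spread between replicates under 12 alternatives (0.62 to 0.80, also its range when each library was left out). The values of the 7 other *Prdm* genes described with it did too, except that of *Prdm16*, which was -0.35 without Het1. The number of differentially expressed genes was 2221 by adjusted p alone, and 386 to 1673 when 1 library was left out. The count of calls among the other family genes was 1 without the filter, 1 with the replicate block, and 1 to 2 when 1 library was left out. In the same leave-one-out fits the counts were 2 to 6 for photoreceptor fate factors, 1 to 20 for photoreceptor genes, 1 to 6 for bipolar genes, 6 to 17 for amacrine genes, 0 to 1 for cofactors, 0 to 1 for horizontal cell genes and 2 to 6 for ganglion cell genes. Adjusted p alone gave 2 cofactors, and no filter gave 0 horizontal cell genes. The sign turned in *Prdm10*, which was -0.00610 without KO3, and in 4 log2 fold changes of tested genes, whose leave-one-out ranges were -0.837 (without KO3) to 0.14 (without Het1) for *Prdm6*, -0.0907 (without Het3) to 0.0203 (without Het2) for *Zfpm2* and -0.0322 (without KO1) to 0.0480 (without KO3) for *Gnb1*, which was 0.00054 with at least 10 counts in every library. Of 56 genes outside the 8 that were followed under the alternatives, 32 were called, 32 of these also by DESeq2, and 9 under all alternatives. The cause of these shifts was not tested.

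The replicate numbers of the labels did not pair the samples. Deviations from the group means correlated at -0.143, 0.249 and -0.00630 between same-numbered Het and KO libraries, and not every library correlated best with its own number. With the replicate number as a block, 1268 genes were called.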

Other observations

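Genes of the other neurons of the E16 retina were read beside the *Prdm* genes. Of 15 ganglion cell genes, 4 were lower in KO and 2 were higher, with a median log2 fold change of -0.10. *Isl1*, a LIM factor of ganglion cells, was measured at 127 CPM in the WT pool, 117, 125 and 122 CPM over the Het pools and 74.5, 80.3 and 72.4 CPM over the KO pools. *Atoh7*, the factor that makes progenitors competent for the ganglion cell fate, was measured at 148 CPM in the WT pool, 131, 147 and 158 CPM over the Het pools and 72.1, 86.6 and 89.0 CPM over the KO pools. Their log2 fold changes were -0.68 and -0.81 (adjusted p = 0.00209 and 0.00783, edgeR), and all 3 KO libraries of each were below WT and Het. *Irx2* and *Gap43* were lower too, and *Thy1* and *Nefh* were higher. The count of 6 was 2 without Het2 and 2 without Het3.

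Of 5 horizontal cell genes, 1 was differentially expressed, *Calb1*, which was higher in KO (log2 fold change 0.59, adjusted p = 0.0423, edgeR), and 0 were when Het2, Het3, KO1 or KO2 was left out. *Prox1*, *Onecut2* and *Onecut1*, the most abundant, were not. Of 17 lens genes, 16 were at their lowest in KO1 or KO2, with a sum of 4.54 and 10.3 CPM there against 22.4 to 112 CPM in the other libraries. *Cryaa*, the most abundant, ranged from 0.0528 to 63.5 CPM, *Lim2* had 0 counts in every library, and 2 of 16 tested lens genes, *Cryab* and *Foxe3*, were lower in KO by the test.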
